A study of Mus musculus with 2 samples.

Results

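The clustered protocadherins are adhesion proteins of the cadherin superfamily whose genes lie side by side in an alpha, a beta and a gamma cluster on mouse chromosome 18. They were taken here as the protein-coding genes whose GENCODE symbol starts with Pcdha, Pcdhb or Pcdhga, Pcdhgb or Pcdhgc followed by a number, or Pcdhac, which gave 57 of the 21474 protein-coding genes in the tables. The alpha cluster held 14 members, the beta cluster 22 and the gamma cluster 21. On assembly mm10 the alpha members spanned 36930184 to 37187661 of chromosome 18, the beta members 37264938 to 37524479 and the gamma members 37661793 to 37841873, all on the plus strand. The members were chosen by name and not by their measured values, though with earlier results of these data known.

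Each alpha and gamma gene has its own promoter and its own large variable exon, which encodes the extracellular domain, the membrane span and the start of the cytoplasmic tail. That exon is spliced to 3 constant exons shared by the whole cluster, which encode the rest of the tail, whereas beta genes end within their own variable exon and have no constant exons. In most neurons studied so far, a cell transcribes a small and partly random set of the alternate members, chosen through looping between promoters and distant enhancers by CTCF and cohesin, and the proteins then bind copies of themselves on other membranes, which lets a neuron recognise its own branches. The last members of the alpha and gamma clusters, named C-type, differ in sequence from the alternates and are known for broader, non-random expression.

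The RNA came from whole midbrain of healthy newborn mice (age 0 days, strain B6NTac;B6NCrl/Lap, males and females pooled), with 1 group and 2 libraries. The labels describe the libraries as biological replicates: replicate 1 was made from 15 animals and replicate 2 from a pool of unstated size, and no treatment or mutant group was included. Each library was stranded, depleted of ribosomal RNA, made from RNA over 200 nucleotides and read as pairs of 101 bases. With 1 group there was no comparison of conditions to test, so levels are given per library with their spread, and any spread between the libraries mixes biological and technical sources. In bulk tissue, fewer cells of a type and less RNA per cell cannot be told apart, and a level says nothing of which cells hold the RNA.

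Replicate 1 held 46685706 estimated counts and replicate 2 held 72779229, of which 0.150% and 0.145% of those on genes fell on the members. Levels are given in TPM (a length-corrected share of all transcripts in a library), which allows genes to be compared within a library. Protein-coding genes held 22.4% of all TPM in replicate 1 and 19.8% in replicate 2, with the rest on other entries. A TPM of 1 was thus a stricter level here than in an mRNA library. TPM ran lower in replicate 2, with a median over detected protein-coding genes of 7.96 and 6.57. All 6 midbrain marker genes examined, among them Otx2, En1 and Pax7, reached a TPM of 1 in both libraries, against 53.8% of protein-coding genes. On scaled counts, 4 of 5 hindbrain and 4 of 4 cerebellum markers were over 2-fold higher in replicate 2, against 6.89% of protein-coding genes. Their summed levels were 0.59 against 6.94 TPM and 6.21 against 16.2 TPM. Choroid plexus markers summed to 16.4 TPM in replicate 1 and 168 TPM in replicate 2, nearly all of it Ttr, which encodes the carrier protein transthyretin.

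The gamma cluster carried most of the clustered protocadherin RNA. Its members summed to 132.8 TPM in replicate 1 and 117.1 TPM in replicate 2, against 52.4 and 38.3 TPM for the beta cluster and 28.9 and 20.02 TPM for the alpha cluster. Gamma thus held 62.0% and 66.7% of the members' summed TPM, beta 24.5% and 21.9%, and alpha 13.5% and 11.4%. The order gamma, beta, alpha was the same in both libraries. The summed gamma level was 4.60-fold and 5.85-fold the alpha level (log2 ratio 2.37 ± 0.25, SD, n = 2) and 2.54-fold and 3.05-fold the beta level (log2 ratio 1.48 ± 0.19). The beta sum was 1.81-fold and 1.92-fold the alpha sum, from more genes. Per gene the clusters lay closer together: the median member was at 3.57 and 3.18 TPM in gamma, 2.28 and 1.60 TPM in beta and 1.75 and 1.28 TPM in alpha. All 57 members together reached 214.0 and 175.5 TPM.

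**Figure D1:**
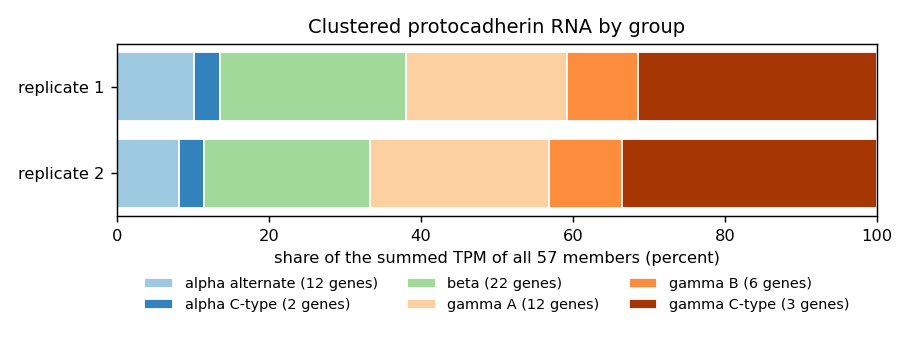
Bars give the percent of the summed TPM of all 57 members carried by each group of genes, one bar per library. The 3 gamma C-type genes alone hold 31.4% in replicate 1 and 33.5% in replicate 2, about as much as the other 18 gamma genes (30.7% and 33.3%).

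Of the 57 members, 47 reached a TPM of at least 1 in both libraries, against 53.8% of all protein-coding genes. All 21 gamma members did so, with 17 of 22 in beta and 9 of 14 in alpha. The 7 members under 1 TPM in both libraries were Pcdha1, Pcdha8, Pcdha10 and Pcdhac1 in alpha and Pcdhb1, Pcdhb2 and Pcdhb3 in beta. Pcdha11, Pcdhb13 and Pcdhb14 reached 1 TPM in replicate 1 only, at 2.11 and 0.92, 1.06 and 0.92, and 1.18 and 0.58 TPM. These counts depended on the level chosen: at a TPM of 2 in both libraries, 2 of 14 alpha, 7 of 22 beta and 17 of 21 gamma members passed, against 46.4% of protein-coding genes. On TPM rescaled to protein-coding genes alone, all 14 alpha members, 21 beta members and all 21 gamma members passed 1, as did 63.2% of protein-coding genes.

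**Figure D2:**
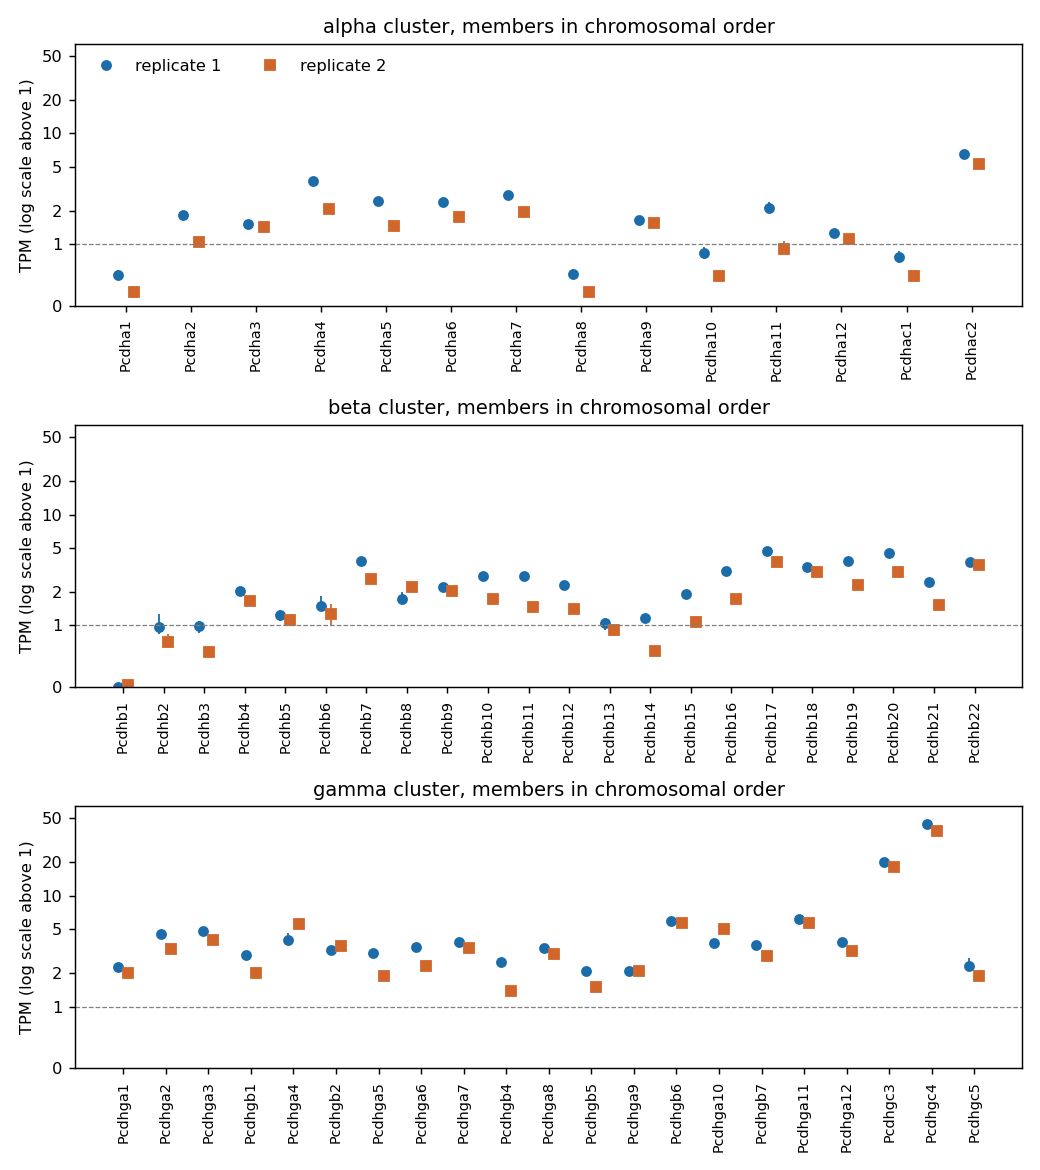
Points give each member's TPM in each library and vertical lines the authors' credibility bounds, with members in chromosomal order within each cluster. The vertical axis is linear below 1 and logarithmic above it, and the dashed line marks a TPM of 1. Pcdhgc3 and Pcdhgc4 stand above every other member, and every gamma gene lies above the dashed line.

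Pcdhgc4, the gamma C-type gene whose product is known for keeping developing neurons alive, was the most abundant member in both libraries. It was at 44.6 TPM in replicate 1 and 38.7 TPM in replicate 2 (41.6 ± 4.17, SD, n = 2), above 96.2% of protein-coding genes in each. It alone made up 33.6% and 33.0% of the gamma cluster. Pcdhgc3, known for promoting dendrite branching in cortical neurons and for acting on Wnt signalling, came next with 20.2 and 18.2 TPM (19.2 ± 1.44). The level of Pcdhgc4 was 2.20-fold and 2.12-fold that of Pcdhgc3. Together these 2 genes held 48.8% and 48.6% of gamma RNA and 30.3% and 32.4% of the RNA of all members. No other member passed 6.47 TPM in replicate 1 or 5.69 TPM in replicate 2, and only Pcdhgc3 and Pcdhgc4 lay above the median of the detected protein-coding genes.

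Pcdhgc5, the last gene of the gamma cluster, did not share the high level of its C-type neighbours. It was at 2.34 and 1.89 TPM (2.12 ± 0.32), 8.65-fold and 9.63-fold below Pcdhgc3 and among the lower gamma members. The mean of the 3 gamma C-type genes was 6.14-fold and 6.04-fold that of the other 18 (log2 ratio 2.61 ± 0.02), and this fold comes from Pcdhgc3 and Pcdhgc4. In the count data Pcdhgc4 had 13412 and 22563 estimated counts, Pcdhgc3 6564 and 11014, and Pcdhgc5 824 and 1287.

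The alpha C-type pair was split in the same manner. Pcdhac2, whose protein is known for spacing the terminals of serotonergic axons, was the highest alpha member at 6.47 and 5.28 TPM (5.88 ± 0.84), or 22.4% and 26.4% of the cluster. Pcdhac1 was at 0.80 and 0.48 TPM, under 1 in both libraries and 8.09-fold and 11.0-fold below Pcdhac2. The mean of this pair was 2.02-fold and 2.42-fold the mean of the 12 alternates, but Pcdhac1 on its own was below that mean, so the difference rests on Pcdhac2. Genes of serotonin neurons were present in the same RNA: Slc6a4, the serotonin transporter, was at 7.68 and 5.05 TPM and Tph2, the enzyme that starts serotonin synthesis in the brain, at 3.55 and 1.65 TPM. The serotonergic transcription factor gene Fev was under 1 TPM in both, at 0.82 and 0.62. On scaled counts Fev was over 2-fold higher in replicate 2 (log2 ratio 1.28, from 16 and 60 counts), as were 6.89% of protein-coding genes. Slc6a4 (-0.32) and Tph2 (-0.82) were lower there. Whether Pcdhac2 RNA lay in those cells was not tested.

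The 12 alpha alternates ranged from 0.50 to 3.72 TPM in replicate 1 and from 0.22 to 2.09 TPM in replicate 2. Pcdha4 and Pcdha7 were highest, at 3.72 and 2.09 TPM and at 2.77 and 1.97 TPM. Pcdha1 (0.50 and 0.22 TPM) and Pcdha8 (0.51 and 0.22 TPM) were lowest, with 143 to 198 counts per library, far above the 3 counts that sampling alone can leave unseen. Between these, Pcdha5, Pcdha6, Pcdha2, Pcdha9, Pcdha3 and Pcdha12 all lay between 1.05 and 2.45 TPM in both libraries. Pcdha10 was at 0.86 and 0.49 TPM. Level did not follow position in alpha: across the 14 genes the Spearman correlation of TPM with chromosomal order was 0.05 and 0.06. All alternates were present as RNA, and this level is an average over all cells of the tissue.

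By Shannon entropy, RNA was spread over most of the alternate members, though their levels differed. The SD across genes was 53.3% and 53.6% of the mean in the alpha alternates. It was 53.1% and 56.5% in beta, and 31.9% and 44.0% in the gamma alternates. Evenness can be given as the number of equally abundant genes that would have the same Shannon entropy. By this measure the 12 alpha alternates corresponded to 10.5 and 10.3 equal genes, the 22 beta members as 18.9 and 18.6, and the 18 gamma alternates as 17.2 and 16.5. With Pcdhgc3, Pcdhgc4 and Pcdhgc5 included, the 21 gamma genes corresponded to 11.9 and 11.8. By the SD over the mean the gamma alternates varied least. Pcdhga11 was at 6.22 and 5.64 TPM, and Pcdhgb6 at 5.89 and 5.69 TPM. The lowest was Pcdhgb5 in replicate 1 (2.10 TPM, with 1.52 TPM in replicate 2) and Pcdhgb4 in replicate 2 (1.39 TPM).

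The gamma A and gamma B subfamilies, which are interleaved along the cluster and differ in variable-exon sequence, lay close in mean level. The 12 gamma A genes averaged 3.78 and 3.45 TPM and the 6 gamma B genes 3.38 and 2.83 TPM, a log2 ratio of 0.22 ± 0.09. Single genes within each subfamily differed by more than that. In gamma A, Pcdhga11 was high and Pcdhga9 (2.11 and 2.10 TPM) and Pcdhga1 (2.30 and 2.02 TPM) low. Pcdhga4 (4.0 and 5.59 TPM) was below Pcdhga3 (4.84 and 3.98 TPM) in replicate 1. Its level in replicate 2 included 2.21 TPM from a 797-base form described below. In gamma B, Pcdhgb6 was above the other 5, and Pcdhgb4 (2.53 and 1.39 TPM) was below Pcdhgb1 (2.92 and 2.01 TPM) and Pcdhgb7 (3.57 and 2.85 TPM). The order of the low gamma genes was not stable, since Pcdhgb5, Pcdhgb4, Pcdhga9 and Pcdhgc5 overlapped between libraries.

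In the beta cluster the levels broadly followed the order of the genes. The 6 genes at the 5′ end, Pcdhb1 to Pcdhb6, had a median of 1.12 and 0.93 TPM. The 9 genes from Pcdhb7 to Pcdhb15 had a median of 2.24 and 1.46 TPM, and the last 7, Pcdhb16 to Pcdhb22, a median of 3.73 and 3.03 TPM. These blocks are unequal in size and were not planned in advance. They also overlapped: Pcdhb7, at 3.85 and 2.63 TPM, was above several of the last 7 genes. The Spearman correlation of TPM with order was 0.69 and 0.59 over the 22 genes, which share the libraries and the neighbourhood and are not independent, so no test is given. For gamma it was 0.24 and 0.26 over 21 genes, and leaving out the C-type genes brought its mean to 0.16.

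Pcdhb17 was the highest beta gene in both libraries, at 4.72 and 3.71 TPM (4.22 ± 0.71). By mean level Pcdhb20 followed at 4.5 and 3.03 TPM and Pcdhb22 at 3.73 and 3.48 TPM. At the other end, Pcdhb1, the first gene of the cluster, was the only member close to silent: it had 0 counts in replicate 1 and 11 in replicate 2, or 0 and 0.03 TPM. Pcdhb2 and Pcdhb3 were higher, at 0.97 and 0.73 TPM and at 0.99 and 0.57 TPM, just under the detection level. Pcdhb14 has the longest beta transcript, at 8695 bases, so its 763 and 690 counts gave only 1.18 and 0.58 TPM, whereas Pcdhb10, with 546 and 630 counts on 2851 bases, was at 2.77 and 1.73 TPM.

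The members' levels in the libraries were close in order. Across the 57 members the Pearson correlation of log2(TPM + 0.1) was 0.96 and the Spearman correlation 0.92, against 0.97 for both across all detected protein-coding genes. For comparisons of counts, libraries were scaled by the TMM method, which left the median protein-coding gene at a log2 ratio (replicate 2 over replicate 1) of 0.01. Of the 57 members, 1 was at least 2-fold higher in replicate 2, against 6.89% of protein-coding genes whose counts summed to 10 or more. None was at least 2-fold higher in replicate 1, against 4.58%. The 1 gene was Pcdhb1, with 11 counts in replicate 2 against 0. Setting the 0 to the 3 counts that sampling allows puts it at least 2.41-fold higher at the observed 11 counts, but the exact binomial interval, which includes the error of those 11, starts at a log2 ratio of 0.72, below 2-fold. These are differences between 2 samples, with no replicate check.

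Below 2-fold, the clusters did not shift alike. The median log2 ratio was -0.46 in alpha, where 11 of 14 genes were lower in replicate 2, and -0.28 in beta, where 16 of 22 were lower. In gamma the median was 0.04 and 8 of 21 genes were lower. Over all 15726 protein-coding genes tested, 48.6% were lower in replicate 2. Counting error alone (exact binomial intervals, 95%) excluded equality for 9 alpha genes on the lower side and 2 on the higher, for 12 and 3 beta genes, and for 6 and 8 gamma genes, against 33.6% and 36.6% of the protein-coding genes tested. The lowest ratios were those of Pcdha8 (-0.95) and Pcdha1 (-0.94), from 198 and 155 counts and from 181 and 143 counts. The highest among genes with counts in both libraries were Pcdhga10 (0.71), Pcdhgb2 (0.53) and Pcdhb8 (0.51). Pcdhgc4 (0.15), Pcdhgc3 (0.14) and Pcdhac2 (-0.01), which were among the most abundant, lay close to 0. The hindbrain, cerebellum and choroid plexus markers were higher in replicate 2, and their part in these shifts was not tested.

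**Figure D3:**
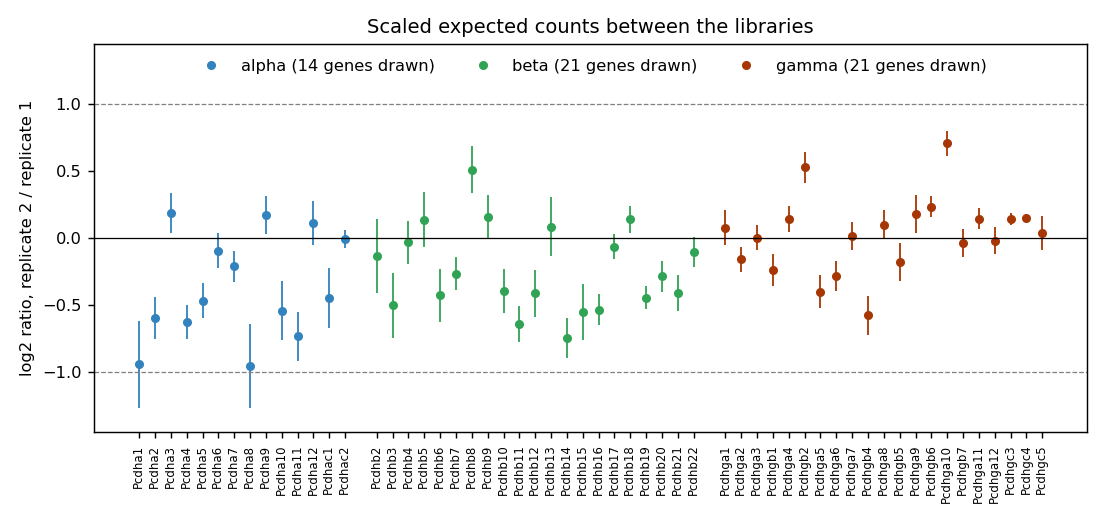
Points give the log2 ratio of scaled counts, replicate 2 over replicate 1, for 56 members in chromosomal order, and lines the 95% exact binomial interval, which covers counting error only. Dashed lines mark 2-fold, and Pcdhb1 is not drawn because it had 0 counts in replicate 1. Most alpha and beta genes lie below 0, whereas the gamma genes lie on both sides, from -0.58 to 0.71.

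The annotation lists several forms of many members, and the deposited share of each gene's RNA per transcript estimates how it was divided among them. Of the genes, 9 alpha, 18 beta and 9 gamma members had a single transcript, and 5, 4 and 12 had more. Transcripts joining the variable exon to all constant exons carried 85.8% and 88.9% of alpha TPM and 83.5% and 86.4% of gamma TPM. Transcripts without any constant exon carried 10.6% and 8.19% in alpha, from 2 transcripts, and 16.5% and 13.6% in gamma, from 11. Of these 13 transcripts, 8 are annotated as retained introns, meaning that the end of the variable exon runs on into the intron. In rRNA-depleted total RNA such forms can include RNA not yet spliced as well as finished ends, and these were not told apart.

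Pcdhgc4 shows how much the forms matter for a gene level. Its full-length transcript of 4 exons was at 27.2 TPM in replicate 1 and 27.8 TPM in replicate 2, nearly equal, or 61.1% and 71.9% of the gene. The single-exon retained-intron transcript was at 13.5 and 6.65 TPM, or 30.3% and 17.2%. The gene's TPM in replicate 2 was lower by less than that of the median detected protein-coding gene, whose log2 TPM ratio was -0.27, and on scaled counts the gene was higher there, so the forms are best compared by their shares. A shorter coding transcript of 2272 bases made up the remaining 8.61% and 10.9%. In Pcdhgc3 the full-length transcript was at 17.5 and 16.2 TPM and the retained-intron form at 2.76 and 1.97 TPM. Pcdhgc5 was 86.8% and 68.1% full-length, with a 5777-base form that keeps an intron as the rest.

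Several alternates carried much of their RNA without constant exons in both libraries. For Pcdha4 a single-exon form made up 59.9% and 68.0%, leaving the 4-exon coding transcript at 1.48 and 0.67 TPM, so Pcdha4 led the alternates through a form that lacks the shared tail. In Pcdhgb5 such a form held 49.2% and 55.1%, and in Pcdhgb4 49.7% and 49.8%. In Pcdhga9 it held 34.8% and 50.01%, and in Pcdhgb2 40.3% and 21.9%. For Pcdha11 it was 38.96% and 23.65%. A second retained-intron form held 40.1% and 64.6% of Pcdha11, and the coding transcripts of that gene were together at 0.45 and 0.11 TPM. Pcdhga4 differed between libraries: a 797-base coding form with 0 counts in replicate 1 had 162 counts and 2.21 TPM in replicate 2, 39.6% of the gene there. The gene's higher TPM in replicate 2 (5.59 against 4.0) lay in that short form, since its full-length transcript was at 4.0 and 3.38 TPM.

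**Figure D4:**
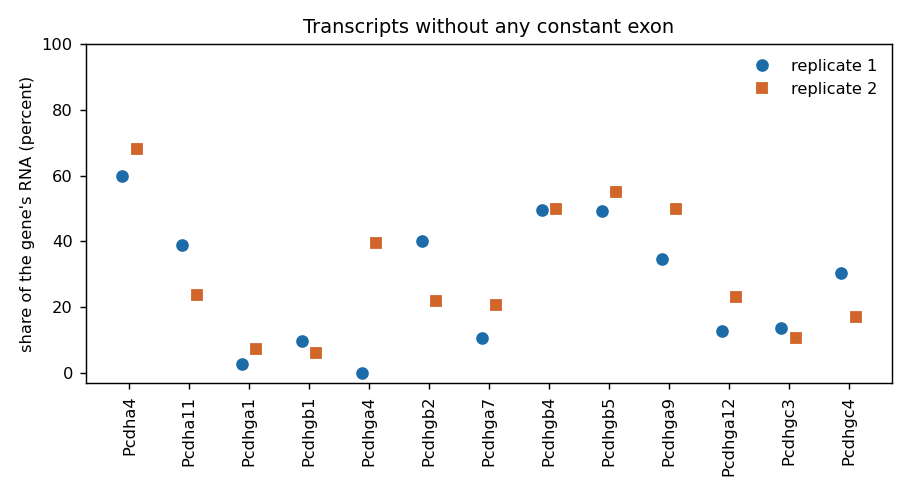
Points give, for the 13 members with an annotated transcript that lacks every constant exon, the percent of the gene's RNA assigned to it in each library. Pcdha4 is highest in both libraries (59.9% and 68.0%), and Pcdhga4 goes from 0 to 39.6%.

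The alpha constant region is known in a second form in which the last exon is spliced within itself, which changes the end of the protein. It was annotated for 5 of the 14 alpha genes, through 6 transcripts, and carried 10.6% and 8.64% of alpha TPM. Because only those 5 genes have it in the annotation, reads across that splice from any other alpha gene could be assigned only to them. The form's share varied widely between genes and, in some, between libraries. In Pcdha1 it was 81.6% and 96.9%, in Pcdha2 29.6% and 68.5%, and in Pcdha6 77.1% and 41.4%. In Pcdha11 it was only 11.2% and 7.82%, and in Pcdha4 0.34% and 0%. The leading transcript changed between libraries in Pcdha2 and Pcdha6. Of the beta genes with more than 1 transcript, Pcdhb22 was split between a 2-exon form (54.8% and 71.3%) and a longer single-exon form (45.2% and 28.8%). In Pcdhb6 a 681-base form had 0 counts in replicate 1 and 23.3 counts, or 32.2% of the gene, in replicate 2. The longer Pcdhb6 transcript was at 1.49 and 0.86 TPM, so the gene passed 1 TPM in replicate 2 only with the short form counted.

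The shared exons bear on how reads were assigned. The alpha constant exons measured 59, 89 and 2712 bases and the gamma ones 59, 89 and 1971 bases, and a read inside them fits every member of the cluster. A median of 44.2% of the positions of an alpha member's longest transcript, 55.9% in gamma and 99.8% in beta, started a 101-base window (1 read length) found in no other gene's annotated transcripts. Pcdha4 had the lowest share, 3.53%: besides the constant exons, 43.9% of its windows also occur in Gm42416, a readthrough gene model that runs from the alpha into the gamma cluster. Gm42416 and the similar models Gm37013 and Gm37388 had 0 counts in replicate 1, and only Gm37388 had any in replicate 2, at 17.3. The authors' posterior SD of the count, divided by the square root of the count, had a median of 0.51 and 0.60 in alpha, 0.67 and 0.67 in gamma and 0 in beta. This is the uncertainty from dividing shared reads, and it stayed below the counting error in every member. The width of the credibility bounds was a median 17.8% and 16.1% of the level in alpha, 16.8% and 14.3% in beta and 13.7% and 10.8% in gamma.

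**Figure D5:**
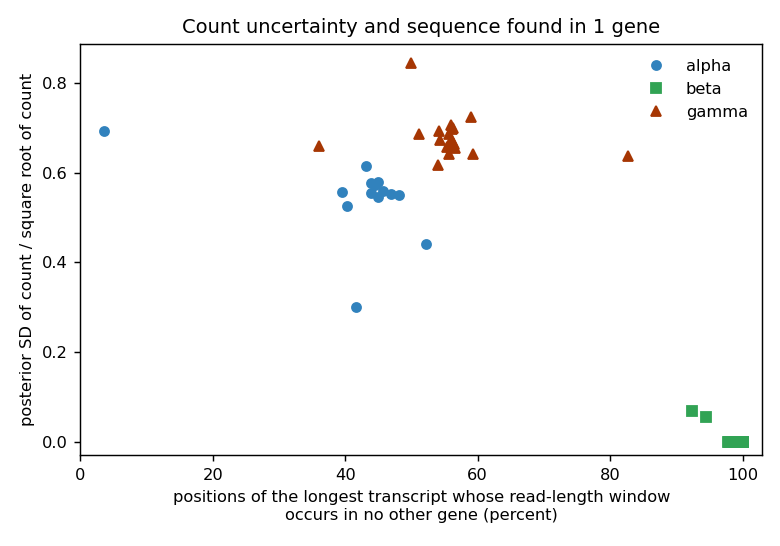
Each point is 1 member with counts in both libraries: the horizontal axis gives the percent of positions in its longest transcript whose 101-base window occurs in no other gene, the vertical axis the posterior SD of its count over the square root of the count (mean of both libraries). The beta genes sit at the lower right, at or near 0, and the alpha and gamma genes at 0.30 or above.

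The nonclustered protocadherins, related adhesion genes scattered over other loci, gave a scale for these levels. Of 12 examined, 11 reached a TPM of 1 in both libraries, against 53.8% of all protein-coding genes. The 12 summed to 249 and 206 TPM, with a median of 20.7 and 17.6 TPM. Those 12 genes thus had a higher summed TPM than the 57 clustered ones. Pcdhgc4 was above all 12 in both libraries. The nearest by mean level were Pcdh10 (38.7 and 31.1 TPM), Pcdh9 (34.0 and 30.0 TPM) and Pcdh8 (31.9 and 27.4 TPM), with Pcdh7 (33.3 and 25.9 TPM) almost level with Pcdh8. Pcdhgc3 was below 6 of them, and every other clustered member was below at least 10. The lowest was Pcdh12, an endothelial gene, at 1.06 and 0.93 TPM.

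Genes for the DNA-looping machinery that acts on protocadherin promoters were present. Of 13 listed, 12 were detected in both libraries, against 53.8% of all protein-coding genes, with a median of 7.25 and 5.70 TPM. CTCF, the factor bound at the promoters and enhancers of the clusters, was encoded by RNA at 9.42 and 7.37 TPM. The highest by mean level were Mau2, part of the cohesin loader, at 21.3 and 16.9 TPM, the cohesin subunit Rad21 at 20.1 and 13.2 TPM, and the cohesin regulator Pds5b at 12.7 and 7.52 TPM. In replicate 2 the cohesin subunit Stag2 (10.4 and 9.47 TPM) was above Pds5b. The germline CTCF relative Ctcfl had 0 counts in both libraries. None of the 13 was past 2-fold between libraries, against 6.89% of protein-coding genes higher in replicate 2 and 4.58% higher in replicate 1. At those shares a list this short can hold none. Wapl, which releases cohesin from DNA, was at 5.06 and 2.71 TPM, a log2 ratio of -0.59 on scaled counts.

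Genes of DNA methylation and chromatin silencing were detected in 7 of 9 cases, against 53.8% of all protein-coding genes. Their median was 12.1 and 8.15 TPM. Trim28, a corepressor, was highest at 99.5 and 119 TPM, and the de novo methyltransferase Dnmt3a was at 21.6 and 16.2 TPM. Dnmt3b, the methyltransferase known for marking clustered protocadherin promoters early in development, was just under the detection level at 0.89 and 0.97 TPM. Smchd1, a silencing factor known to act on the clusters, was at 12.1 and 7.19 TPM. None of the 9 was past 2-fold, against 6.89% of protein-coding genes higher in replicate 2 and 4.58% higher in replicate 1. So short a list can hold none at those shares.

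Downstream, 20 of 21 genes for partners of the protocadherin tail and the pathways they act on were detected, against 53.8% of protein-coding genes. Their median was 11.6 and 8.07 TPM. Ctnnb1, which encodes beta-catenin, was highest at 194.8 and 189.5 TPM, followed by the GTPase gene Cdc42 (145 and 107 TPM) and Marcks, a membrane-bound substrate of protein kinase C (114 and 89.5 TPM). The tail-binding kinase genes differed: Ptk2, encoding FAK, was at 7.41 and 5.32 TPM, while Ptk2b, encoding PYK2, was at 0.31 and 0.75 TPM and was the 1 gene of the list past 2-fold (higher in replicate 2, log2 ratio 1.46). All 8 genes for the proteases that cut protocadherins at the membrane were detected, against the same 53.8%. Adam10 was at 5.85 and 3.14 TPM, and the highest were the gamma-secretase genes Psenen (13.7 and 23.1 TPM), Ncstn (16.8 and 12.9 TPM) and Aph1a (16.7 and 16.5 TPM). Psenen was past 2-fold, higher in replicate 2 (log2 ratio 1.04). Over all protein-coding genes, 6.89% were past 2-fold in that direction.

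The unrelated genes next to the clusters were also below the median of the detected protein-coding genes (7.96 and 6.57 TPM). All but Slc25a2 were above the median of all protein-coding genes (1.91 and 1.61 TPM). Taf7, which lies between the beta and gamma clusters and encodes a general transcription factor subunit, was at 3.73 and 2.02 TPM, and Diaph1, which follows the gamma cluster and encodes a formin, at 4.81 and 4.49 TPM. Zmat2 was at 6.16 and 5.04 TPM. Slc25a2, a mitochondrial carrier gene beside Taf7, was at 0.42 and 0.08 TPM, from 35 and 13 counts. It was past 2-fold with a log2 ratio of -1.98, a direction in which 4.58% of protein-coding genes were past 2-fold. Pcdhgc3, Pcdhgc4 and Pcdhac2 were thus above each of these 4 neighbours in both libraries, whereas most alternates were below Zmat2, the highest of them. Pcdhga11 was above all 4 in both libraries, and Pcdhgb6 and Pcdhga4 were in replicate 2. For Pcdhga4 this held only with its short form counted, since its full-length transcript was at 3.38 TPM there.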

How the data were processed

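Total RNA-seq of P0 mouse midbrain was analysed from 2 libraries of 1 group. Genes and transcripts were quantified by the authors on mm10 with a GENCODE annotation, per the deposited sample notes. Which aligner and quantification program they ran is not given in the sources used here. Their deposited expected counts are estimated and need not be whole, because shared reads are divided. The authors' TPM values were the main level, their FPKM values an alternative, and the deposited percent of a gene carried by each transcript was used as given. Credibility bounds and posterior SDs are the authors' own. Symbols, types, exons and coordinates came from a later GENCODE release on the same assembly, which matched 42462 of 43346 gene identifiers. Reads on identifiers without a symbol were 0.131% and 0.120% of gene counts. Whether the counting used the strand is likewise not given.

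The 1 identifier that the release names as a second Pcdha11 was called Pcdha10, from its RefSeq match. Expected counts were rounded and scaled with TMM (edgeR 4.0.16) over genes whose counts summed to 10 or more, with an offset of 0.5 counts in log2 ratios; the scaling was checked on simulated counts. With 1 group no test between conditions exists and no p-value is given. Detected means a TPM of at least 1 in both libraries, and a library difference is called at 2-fold. Depth was 46685706 and 72779229 counts. Intervals (exact binomial, 95%) and the limit of 3 counts for a count of 0 cover counting error only.

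The genes named are every C-type member, the 3 highest and 3 lowest of each cluster, members under 1 TPM in both libraries, members past 2-fold, and in each list the 3 highest and those under 1 TPM in both. Some items that this rule would name are not reported here. Others named, such as those at the ends of a range or with a changed transcript, were chosen after their values were seen. The members and lists were chosen with earlier results of these data known. Other units, thresholds, scalings and count filters were tried, and each library was left out in turn. Python 3.11.15, numpy 2.4.6, pandas 2.3.3 and scipy 1.17.1 were used. No sequences are shown.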

Additional observations from a re-analysis of the deposited data

Results flagged for a closer look

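Among the 28 other annotated genes inside the region of the clusters, 23 are noncoding or pseudogene models, and 10 of these had more than 3 counts in both libraries, the limit that a count of 0 allows. They belong to no comparison of the report, and each value here is the mean of both libraries' estimated counts. The polymorphic pseudogene Pcdhgb8 had 281 counts, and as a gamma-type model sharing the constant exons its reads can be divided with the gamma members. Gm36858, an unprocessed pseudogene between Pcdha7 and Pcdha8, had 210 counts, the lincRNA model 3222401L13Rik just before Pcdhga1 had 178, and Gm26672, on the minus strand across the region of Pcdhga10 to Pcdhga12, had 171. BC037039, annotated antisense over the start of Pcdhgc3, had 166, with 75 in replicate 1 and 257 in replicate 2. Gm38182, on the plus strand over the gamma constant exons, had 100.9 and Gm19035, a processed pseudogene between the alpha alternates and Pcdhac1, had 97.5. Antisense Gm10545 had 47 counts, Gm20162 had 15.5 and Gm18150 had 11. Where a minus-strand model overlaps a member, reads of the 2 strands can be told apart only if the counting used the strand, which is not given in the sources used here.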

How the results depend on the processing

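The order gamma, beta, alpha of the summed levels had the same direction under every alternative tried (FPKM, posterior mean TPM, counts per kilobase, coding transcripts only, no highest member, either library alone), but some sizes moved. With coding transcripts only, the log2 ratio was 1.26 for gamma over beta, 1.09 for beta over alpha, 1.41 and 2.39 for C-type over other members in alpha and gamma, and 0.44 for gamma A over gamma B. Without the highest member of each cluster it was 1.03 for gamma over beta and 1.16 for beta over alpha. The C-type ratio then was 1.63 in gamma and reversed to -1.24 in alpha, where only Pcdhac1 was left. Members detected were 2 in alpha and 7 in beta at a TPM of 2, and 14 in alpha on the protein-coding scale. With a summed count of at least 50, Pcdhb1 was no longer considered and 0 beta members were past 2-fold. Scaling by library totals brought the gamma median between libraries to 0.00 and the beta median to -0.31. With either library alone the summed ratios ranged from 2.20 to 2.55 (gamma over alpha), 1.34 to 1.61 (gamma over beta) and 0.86 to 0.94 (beta over alpha). No paired analysis was possible because there is 1 group. With 2 libraries, spread is poorly known, and levels of alpha and gamma members depend on how shared reads were divided.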
